A study of Homo sapiens with 18 samples.

Results

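Gene expression in PANC1, COLO357 and SUIT2, 3 cell lines of human pancreatic ductal adenocarcinoma, was compared after transfection with 1 of the study's small interfering RNAs (siRNAs) against KMT2D, KMT2D siRNA2, and with its control siRNA. The 6 libraries were chosen by title, 1 with KMT2D siRNA2 and 1 with Control siRNA in each line, out of 18 libraries in the series. All 3 are established lines, and nothing but the transfected siRNA separates the groups in the labels. RNA was taken 48 h after transfection and depleted of ribosomal RNA, and 100 nt read pairs were counted per gene. The other libraries held KMT2D siRNA1 or 1 of 3 KMT2C siRNAs in the same lines and served here to estimate the spread. KMT2D siRNA1 was also compared with KMT2D siRNA2 directly. That comparison and the one with control siRNA use the same siRNA2 libraries, so a gene that passes both is not independently supported. The series was made to ask how loss of KMT2C or KMT2D alters gene expression in this cancer. Values of a gene are given in the order PANC1, COLO357 and SUIT2, as counts-per-million values (CPM), and fold changes are on the log2 scale unless a fold is named.

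KMT2D is a large histone methyltransferase that places a single methyl group on lysine 4 of histone H3 at enhancers, in a complex with WDR5, RBBP5, ASH2L and DPY30 and with the adaptor NCOA6 and the demethylase KDM6A. KMT2C is its close paralog, and both genes are recurrently mutated in pancreatic and other cancers. An siRNA guides cleavage of the mRNA it matches in full, and can also lower other mRNAs whose 3′ untranslated region (UTR) pairs with a short stretch near its 5′ end, the seed, as microRNAs do.

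The 6 libraries held 21244832 to 32115894 gene counts, and 7.49% to 16.5% of read pairs fell in no annotated feature. Cell line separated the libraries on the first and second principal components of log2 CPM (54.4% and 37.5% of the variance), and siRNA on the third (4.57%), where the 3 controls lay on one side and the 3 siRNA2 libraries on the other. The epithelial markers KRT8, KRT18 and KRT19 were present in every library, and 0 of 6 epithelial markers was called. Of 7 fibroblast, 7 leukocyte and 6 endothelial markers, 4, 4 and 1 passed the filter on low counts and 0 was called. The leukocyte marker LCP1 lay at 0.129, 358 and 0.0454 CPM with control siRNA and 0, 361 and 0.178 CPM with KMT2D siRNA2, and the macrophage markers CD14 and CSF1R and the fibroblast markers LUM and FAP were below 1 CPM in all 6. Of 16 housekeeping genes edgeR called 0, with a median log2 fold change of 0.00, 1 at an unadjusted p under 0.05, 1 called by DESeq2 and 0 by limma-voom. No marker had an unadjusted p under 0.05, and DESeq2 and limma-voom called 0 of the fibroblast, leukocyte and endothelial markers. Each library is a bulk sample, so fewer cells of a kind and less RNA per cell cannot be told apart. Whether libraries stem from separate cultures is not stated. With 1 library per siRNA in each line, the p-values rest on how siRNA effects differ among these 3 lines, technical spread included. A spread between replicates within a line was not measured.

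KMT2D mRNA was below control in all 3 lines, without passing the test. KMT2D (ENSG00000167548) lay at 26.8, 33 and 67.3 CPM with control siRNA and 23, 14.9 and 44.8 CPM with KMT2D siRNA2. The siRNA2 library was below its own control in each line, but the groups overlapped, since the SUIT2 siRNA2 level was above the PANC1 and COLO357 control levels. The fitted log2 fold change was -0.64 (SE 0.287, adjusted p = 0.175, edgeR's quasi-likelihood test with Benjamini-Hochberg adjustment). With no filter on low counts it passed the test (adjusted p = 0.0197). With KMT2D siRNA1 the levels were 21.8, 14.3 and 23.1 CPM, a fitted value of -1.01 (adjusted p = 0.0555) against the same control libraries. The direct difference between the siRNAs was 0.37 (SE 0.289, adjusted p = 0.465). KMT2C (ENSG00000055609) lay at 49.9, 91.1 and 143 CPM with control siRNA and 139, 93.3 and 217 CPM with KMT2D siRNA2, higher in each line and by 0.73 (SE 0.212, adjusted p = 0.0307). In COLO357 its 2 levels were close. It lay at 70.3, 84 and 134 CPM with siRNA1 and was 0.66 higher with siRNA2 than with siRNA1 (adjusted p = 0.0435). The call was lost for KMT2C without the PANC1 control (adjusted p = 0.19), the PANC1 siRNA2 library (0.203) or the SUIT2 siRNA2 library (0.093). It was also lost when only the 9 control and KMT2D libraries, or only the 6 compared here, entered the fit (adjusted p = 0.058 and 0.111).

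**Figure D1:**
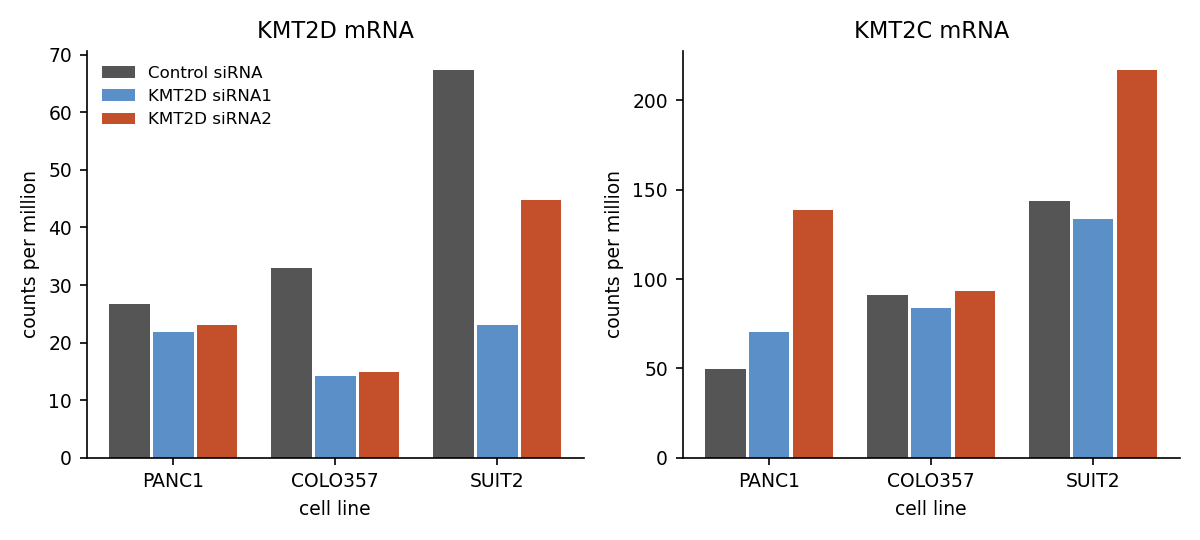
KMT2D and KMT2C mRNA in CPM (vertical axis) by cell line (horizontal axis), with 1 bar per library for control siRNA, KMT2D siRNA1 and KMT2D siRNA2. KMT2D was below control in every line with either siRNA, by the least in PANC1, and KMT2C stood highest with siRNA2, with the smallest margin in COLO357.

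Of 16 tested genes of the KMT2 complexes 1 fell and 2 rose (KMT2C and NCOA6), where 4.89% of all genes rose and 5.57% fell. Among protein-coding genes these shares were 6.23% and 6.69%. DPY30, the shared subunit that stimulates methyltransferase activity, lay at 98.6, 43.5 and 47.4 CPM with control siRNA and 30.7, 23.9 and 25.8 CPM with KMT2D siRNA2 and fell 2.18-fold (-1.13, adjusted p = 0.000189). NCOA6, the adaptor of the KMT2C and KMT2D complexes, rose from 14.6, 25.8 and 51.4 to 49.9, 26.1 and 83.2 CPM (0.84, adjusted p = 0.0263), with hardly any difference in COLO357. The core subunits WDR5 (0.27), RBBP5 (-0.35) and ASH2L (-0.26) were not called. KDM6A, the demethylase of the same complex, was at 50.6 and 78.2 CPM in the PANC1 and COLO357 controls and at 0.0455 CPM in the SUIT2 control, with 60.7, 70.2 and 0 CPM with siRNA2. Among 24 other chromatin regulators, the enhancer acetyltransferases CREBBP (0.98, adjusted p = 0.00458) and EP300 (0.84, adjusted p = 0.0156) rose and the PRC2 subunit EED fell (-1.02, adjusted p = 0.000397). CREBBP lay at 45.5, 58.9 and 74.6 CPM with control siRNA and 117, 76.6 and 158 CPM with KMT2D siRNA2, and both acetyltransferases were higher with siRNA2 than with siRNA1 as well (adjusted p = 0.00164 and 0.00438). The calls ended for NCOA6 without the PANC1 control (adjusted p = 0.178), the SUIT2 control (0.0795), the PANC1 siRNA2 library (0.182) or the SUIT2 siRNA2 library (0.0566). They also ended for EP300 without the PANC1 control (adjusted p = 0.0951), the SUIT2 control (0.0566), the PANC1 siRNA2 library (0.088) or the SUIT2 siRNA2 library (0.0953), and for both genes in the fit of the 6 libraries alone (adjusted p = 0.115 and 0.0576).

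Over all genes, 926 rose (4.89% of 18944 tested) and 1056 fell (5.57%) with KMT2D siRNA2 at an adjusted p under 0.05, 1982 in all (10.5%), and the median log2 fold change was 0.03. The direction was the same in all 3 lines for 860 of the genes that rose (4.54%) and 1015 of those that fell (5.36%). The fit compares libraries within a line. Without the line term 35 genes were called, 3 higher and 32 lower. Without the PANC1 control, the SUIT2 control or the SUIT2 siRNA2 library the count was 1214, 1185 or 1192, and it was 1180 with the 6 libraries alone.

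The 14 largest falls, among genes with a mean of at least 2 CPM that fell in all 3 lines, were in genes of widely different function. Of these, 10 stayed called under every alternative run. CALM2 (ENSG00000143933), 1 of 3 genes that encode the calcium sensor calmodulin, lay at 601, 269.8 and 298 CPM with control siRNA and 47.4, 56.9 and 56.3 CPM with KMT2D siRNA2. Its 3 siRNA2 libraries were close together and far below every control, a 6.63-fold fall (-2.73, SE 0.247, adjusted p = 1.5e-06). The calmodulin gene CALM3 rose in every line, from 256, 198 and 189 to 438, 336 and 403 CPM (0.87, adjusted p = 0.00481). It was chosen after the value of CALM2 had been seen. DESI2 (ENSG00000121644), a deSUMOylating isopeptidase family member, fell from 211, 109 and 126 to 17.2, 24.8 and 24 CPM (6.45-fold, adjusted p = 1.25e-07), with no overlap between the groups. RAN (ENSG00000132341), the small GTPase that drives transport through the nuclear pore, fell from 717, 474 and 480.5 to 118, 156 and 85.7 CPM (4.6-fold, adjusted p = 1.25e-07). CPOX (ENSG00000080819), the coproporphyrinogen oxidase of heme synthesis, fell from 33.8, 35 and 42.1 to 4.1, 11.5 and 4.09 CPM (5.98-fold, adjusted p = 4.05e-06). With siRNA1 the fitted values of DESI2, RAN and CPOX were 0.26, 0.03 and 0.16, none of them called.

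The other large falls shared by all lines were smallest in COLO357, except for CENPQ, whose smallest fall was in SUIT2. PDIA6 (ENSG00000143870), a protein disulfide isomerase of the endoplasmic reticulum, went from 326, 495 and 471 to 40.5, 141 and 90.5 CPM (-2.30, adjusted p = 1.25e-05). EI24, an endoplasmic reticulum membrane protein linked to autophagy, fell by 2.44 on the log2 scale, and the centromere protein CENPQ by 2.42. ABT1, an activator of basal transcription, was at -2.42 and the ependymin-related EPDR1 at -2.23. SIKE1, a suppressor of the kinase IKBKE, was at -2.20 and MAD2L2, a subunit of the translesion polymerase zeta, at -2.23. The adjusted p lay between 2.79e-06 (ABT1) and 0.000562 (MAD2L2). CLDN2 and UCA1 rested on SUIT2, the line that expressed them. The tight junction gene CLDN2 (-3.11) lay at 0.225, 0.337 and 531 CPM with control siRNA and 0, 0.0887 and 62 CPM with KMT2D siRNA2 and the long noncoding RNA UCA1 (-2.42) at 0.0322, 0.337 and 99.5 CPM with control siRNA and 0, 0.0444 and 19.3 CPM with KMT2D siRNA2. The calls ended for CLDN2 without the SUIT2 siRNA2 library (adjusted p = 0.0774) and for UCA1 without the SUIT2 control (adjusted p = 0.0629) or the SUIT2 siRNA2 library (0.259).

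Many of the genes that fell with siRNA2 shared a short stretch of 3′ UTR sequence. For each of 13720 heptamers, the mean difference between siRNA2 and siRNA1 libraries was compared between genes whose 3′ UTR held it and all others, with UTR length as a term and no control library involved. TACTGTC had the lowest value of all in each of the 3 lines (-0.321, -0.256 and -0.313 on the log2 scale, 1034 genes), followed in each by ACTGTCA (-0.286, -0.209 and -0.275, 1489 genes) and then by AACTGTC. The first and second overlap to TACTGTCA, whose first heptamer has the reverse complement GACAGTA. At the other end, GCATCAT (1013 genes) had the highest value in PANC1 (0.373) and SUIT2 (0.338) and place 109 in COLO357 (0.176). Without the siRNA sequences, which were not at hand, a match of either stretch to an siRNA seed was not tested.

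The octamer was present in the 3′ UTR of 7 of the 14 largest falls. Its first occurrence is shown for 6 of them with the octamer in capitals, in GENCODE v29 transcripts, and the windows have the GRCh38 positions given after the sequences. Other sites are shown for ACLY, the enzyme that makes acetyl-CoA for lipid synthesis, and for INPP4B, a phosphoinositide phosphatase that holds the octamer and rose.
CALM2: gtttctcccTACTGTCAaaaaaatat
DESI2: atgcaagtgTACTGTCAttcatagtg
CENPQ: aatattttcTACTGTCAtcaaaacat
ABT1: cctaattcaTACTGTCAtactagcat
EPDR1: gttccctcgTACTGTCActcctttgg
RAN: cttgtttgtTACTGTCAttcccattc
ACLY: gcatctaagTACTGTCAggatggggt
INPP4B: atgattcagTACTGTCAtttctagtt

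In GRCh38 the windows lie at chr2:47160669-47160694 (CALM2, minus strand), chr1:244708897-244708922 (DESI2, plus) and chr6:49492861-49492886 (CENPQ, plus). The others lie at chr6:26598839-26598864 (ABT1, plus), chr7:37951244-37951269 (EPDR1, plus), chr12:130876212-130876237 (RAN, plus), chr17:41867511-41867536 (ACLY, minus) and chr4:142028559-142028584 (INPP4B, minus). The octamer of CALM2 starts 91 bases after the stop codon in a 3′ UTR of 694 bases that holds 2 copies. In RAN it starts at base 295 of 1752, in ACLY at base 283 of 902 and in DESI2 at base 3117 of 3244. INPP4B, with the octamer at base 207 of 5622, lay at 10.5, 45.6 and 249.6 CPM with control siRNA and 15.7, 57.5 and 390 CPM with KMT2D siRNA2 (0.51, adjusted p = 0.0414). Its rise was small beside the falls of the other genes shown, and the call was lost for INPP4B without the PANC1 control (adjusted p = 0.117), the SUIT2 control (0.182), the PANC1 siRNA2 library (0.102), the COLO357 siRNA2 library (0.0599) or the SUIT2 siRNA2 library (0.0994).

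Across 11542 protein-coding genes searched, 2016 held either heptamer in the 3′ UTR, of which 383 (19%) fell and 94 (4.66%) rose against control. Of the 9526 without a site, 499 (5.24%) fell and 715 (7.51%) rose. The median log2 fold change was -0.14 with a site and 0.09 without, and it went from -0.09 (second heptamer only, 982 genes) over -0.13 (first heptamer without the octamer, 664 genes) to -0.24 (octamer, 370 genes). The same groups had medians of 0.02, 0.04 and 0.03 with siRNA1. With 2 or more sites, 111 of 376 genes (29.5%) fell. The difference was present at both UTR lengths: 24.1% of genes with a site and 4.88% of those without fell where the UTR was under 2000 bases, and 16.6% and 6.31% where it was longer. In the 3 lines the octamer group had medians of -0.30, -0.24 and -0.28. The heptamers were chosen by the difference between these same siRNA2 and siRNA1 libraries. The shares and medians, those with siRNA1 included, are therefore a description and not independent evidence.

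**Figure D2:**
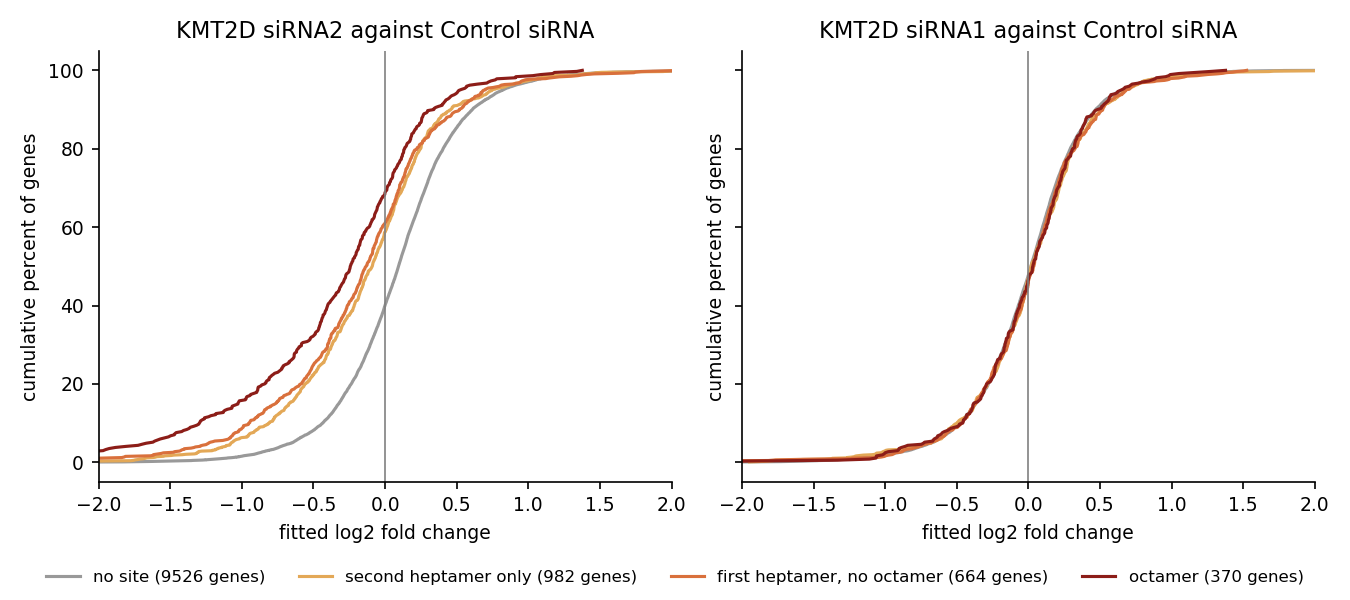
Cumulative percent of protein-coding genes (vertical axis) against fitted log2 fold change (horizontal axis) for KMT2D siRNA2 (left) and KMT2D siRNA1 (right) against the same control libraries, by 3′ UTR site class. With siRNA2 the curves of the 2016 genes with a site lie to the left of the 9526 without, the octamer class farthest, and with siRNA1 the 4 curves lie close together. The sites were chosen by the difference between these siRNA2 and siRNA1 libraries, so neither panel is independent of that choice.

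Read from the side of the genes, 383 of the 882 that fell and were searched (43.4%) held a site, against 94 of 809 that rose (11.6%) and 1539 of 9851 that were not called (15.6%). Among the 100 largest falls 68 held a site, 29 of them the octamer, and among the other 782 falls 315 did (40.3%). Of the 14 largest falls, EI24 and SIKE1 held the first heptamer, PDIA6 and MAD2L2 the second, and CPOX and CLDN2 held neither, while the noncoding UCA1 was not searched. Of the chromatin genes above, DPY30 held the second heptamer and EED the first, and KMT2D held neither.

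The largest rises were in part shared with KMT2D siRNA1, which has the same control libraries. From the control and KMT2D libraries alone, a rise with both siRNAs and a low level in the controls cannot be told apart. Levels in the KMT2C siRNA libraries were not compared. CLDN1 (ENSG00000163347), a claudin that seals tight junctions, lay at 9.5, 64.9 and 27.9 CPM with control siRNA and 84.6, 221 and 293 CPM with KMT2D siRNA2. The siRNA2 libraries lay above all 3 controls, 6.83-fold in the fit (2.77, SE 0.381, adjusted p = 0.000372), against 1.61 with siRNA1, and the difference between the siRNAs passed the test (1.16, adjusted p = 0.0484). MET (ENSG00000105976), the receptor of hepatocyte growth factor, rose from 94, 65.1 and 207 to 366, 237 and 1153 CPM (4.21-fold, adjusted p = 1.57e-05) without overlap, and was also higher than with siRNA1 (adjusted p = 0.0432). ADAM32, a disintegrin family member, rose from 0.902, 1.93 and 2.46 to 3.67, 5.94 and 20.2 CPM (2.29, adjusted p = 2.5e-05) and the methionine sulfoxide reductase MSRB3 from 40.7, 3.85 and 1.54 to 164, 8.47 and 16.2 CPM (2.12, adjusted p = 0.000252). Both were also raised against control by siRNA1 (adjusted p = 0.00295 and 0.00248), and their difference between the siRNAs did not pass (adjusted p = 0.059 and 0.416). The decoy receptor TNFRSF11B, osteoprotegerin, was at 2.48 with siRNA2 and 2.04 with siRNA1 (adjusted p = 0.00811 and 0.0438). FGF14, an intracellular fibroblast growth factor homolog, was at 2.30 and 1.32, of which the second did not pass (adjusted p = 0.0006 and 0.0617). The call was lost for TNFRSF11B without the SUIT2 control (adjusted p = 0.0947).

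The other 8 large rises were not called with siRNA1, whose fitted values ran from -0.64 (BACH2) to 0.84 (GRIN2A). MXRA5, a secreted matrix-remodelling protein, lay at 4.89, 0 and 7.64 CPM with control siRNA and 41.3, 0.0444 and 28.1 CPM with KMT2D siRNA2 and rose 5.3-fold (adjusted p = 0.00212), a rise made in PANC1 and SUIT2, since COLO357 hardly expressed it. ABCG1 (ENSG00000160179), a transporter that exports cholesterol, rose from 0.258, 21.6 and 3.23 to 0.338, 62.7 and 32.6 CPM (adjusted p = 0.00443), in COLO357 and SUIT2. The related exporter ABCA1, picked after these values were seen, rose in all 3 lines, from 4.93, 35.6 and 3.77 to 14.5, 104 and 10.5 CPM (1.52, adjusted p = 0.00328). The rise of the keratin KRT16 (2.47, adjusted p = 0.00363) lay mostly in COLO357, at 0, 3.95 and 0.0909 CPM with control siRNA and 0.0845, 19.1 and 0.445 CPM with KMT2D siRNA2. The transcription repressor BACH2 went from 2.12, 0.0482 and 0 to 11.4, 0.488 and 0.0445 CPM (adjusted p = 0.00449) and the immediate early factor FOSB from 1.93, 1.06 and 1.09 to 21.8, 2 and 3.16 CPM (adjusted p = 0.047), both most in PANC1. The glutamate receptor subunit GRIN2A was at 2.12 and TCP11L2 at 2.17. Against siRNA1 the 5 largest positive differences were in MXRA5 (2.98), the scramblase family member PLSCR4 (2.60), KRT16 (2.47), the transporter SLC16A6 (2.42) and ABCG1 (2.41), with adjusted p from 0.000277 to 0.00406. Calls against control were lost for ABCG1 without the SUIT2 control (adjusted p = 0.0567), KRT16 without the COLO357 control (adjusted p = 0.301), BACH2 without the PANC1 control (adjusted p = 0.0632) or the PANC1 siRNA2 library (0.161) and SLC16A6 without the PANC1 control (adjusted p = 0.0921), the COLO357 control (0.0678) or the PANC1 siRNA2 library (0.16). They were also lost for FOSB without the PANC1 control (adjusted p = 0.219), the COLO357 control (0.139), the SUIT2 control (0.0513), the PANC1 siRNA2 library (0.232) or the SUIT2 siRNA2 library (0.137).

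**Figure D3:**
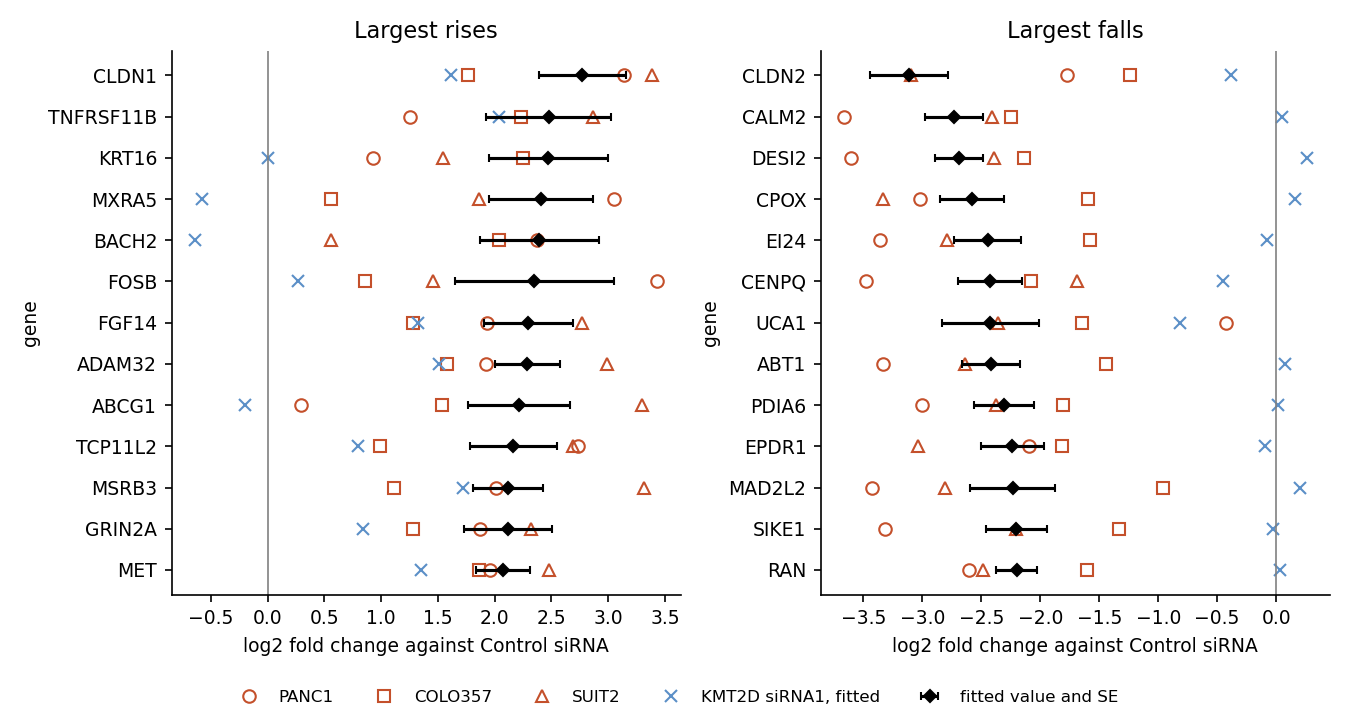
Log2 fold change against control siRNA (horizontal axis) for the largest rises and falls described in the text (vertical axis), with open symbols for the single lines under KMT2D siRNA2, diamonds for the fitted value with its standard error and crosses for the fitted value of KMT2D siRNA1. The falls from CALM2 to RAN lie between -2.73 and -2.20 while their crosses lie near 0, except for CENPQ (-0.45) and UCA1 (-0.81), and the crosses of CLDN1, TNFRSF11B, ADAM32, MSRB3, MET and FGF14 lie well above 0.

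Compared directly with KMT2D siRNA1, 1246 genes were higher with siRNA2 (6.58%) and 1220 lower (6.44%), 2466 in all (13%), and this contrast uses no control library. Among the 5 largest negative differences were those of the ectonucleotide phosphatase family member ENPP5 (-3.13), DESI2 (-2.95), CALM2 (-2.78) and CPOX (-2.74), the last 3 being among the largest falls against control. ENPP5 was expressed in SUIT2 alone, at 13.4 CPM with control siRNA, 3.6 CPM with siRNA2 and 27.8 CPM with siRNA1. Its call against control was lost for ENPP5 without the SUIT2 control (adjusted p = 0.605) or the SUIT2 siRNA2 library (0.809), and the first of these turned its direction. Of the genes that fell against control, 661 were also lower with siRNA2 than with siRNA1, and of those that rose, 340 were also higher. The same siRNA2 libraries enter both contrasts, so some of this overlap is built in. PIK3CB, the p110-beta subunit of phosphoinositide 3-kinase, was called lower with either siRNA (-1.55 with siRNA2 and -1.76 with siRNA1, adjusted p = 2.1e-05 and 1.15e-05) and did not differ between them by the test (adjusted p = 0.517). Both siRNAs have the same control libraries. For PIK3CB and other genes or lists lower with both, a fall and a high level in the controls cannot be told apart from these libraries alone. Without the PANC1 siRNA2 or the SUIT2 siRNA1 library the count of differences was 1627 or 1205.

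The function of the changed genes was described with gene lists, each given by its counts and its median beside those of all 18944 genes (4.89% higher, 5.57% lower, median 0.03). Among the 13781 protein-coding genes tested, 6.23% rose and 6.69% fell, with a median of 0.06, so small list counts can lie near the background. Histone genes had the highest share called lower (85.7%), followed by lipid synthesis (52%), replication (46.7%) and DNA repair genes (42.3%). The stress response list had the highest share called higher (45.8%), followed by YAP and TGF-beta targets (32%) and the Notch pathway (25%).

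**Figure D4:**
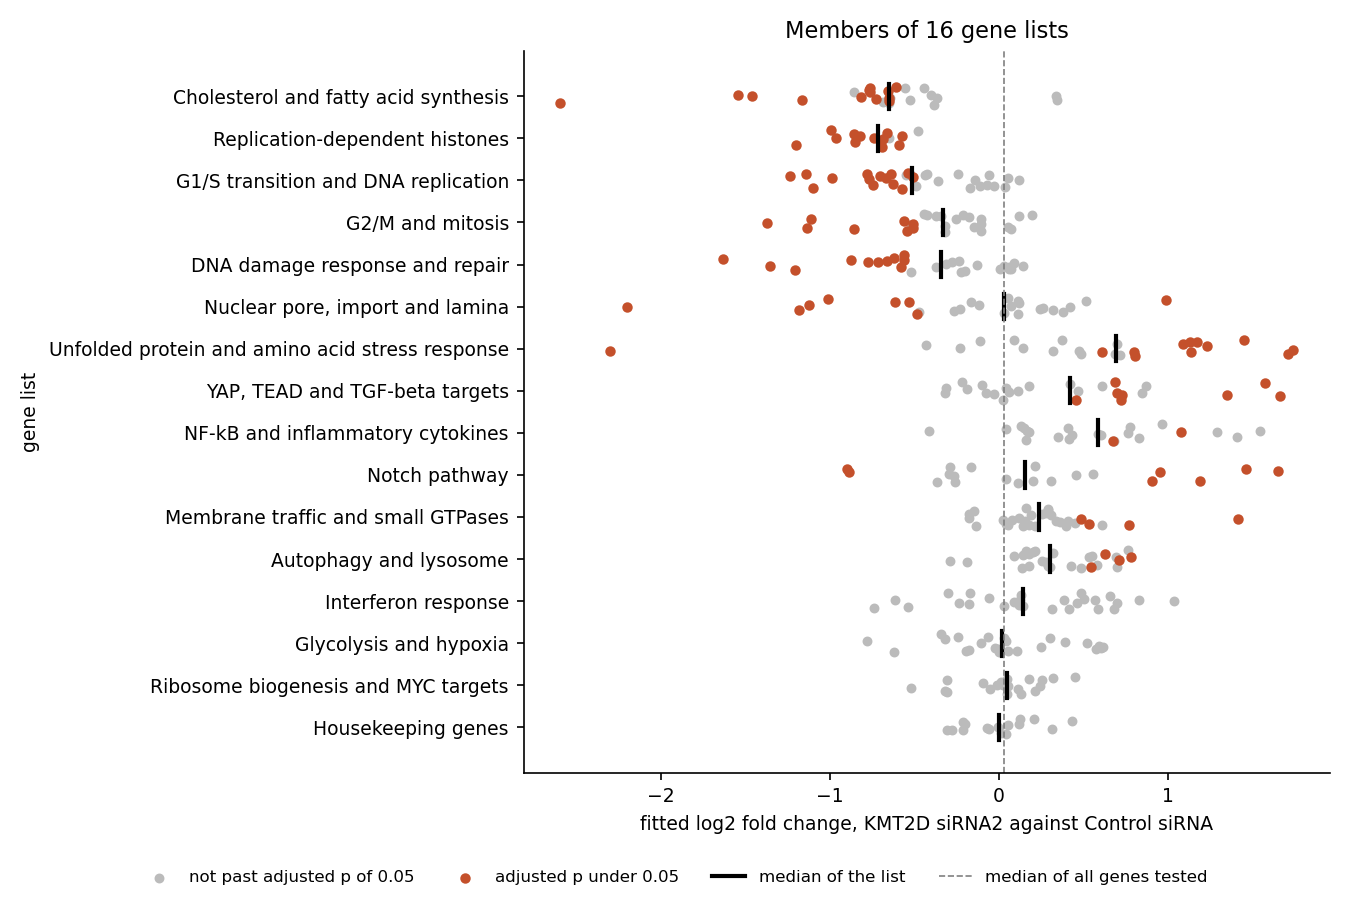
Fitted log2 fold change (horizontal axis) of the members of 16 gene lists (vertical axis), KMT2D siRNA2 against control siRNA, filled in red where the adjusted p was under 0.05, with the median of each list and of all genes tested. The lipid synthesis list has a median of -0.65 with 13 members called lower, the stress response list 0.69 with 11 called higher, and interferon, glycolysis and housekeeping genes have none called.

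Lipid synthesis genes were mostly lower, for cholesterol and fatty acids alike. Of 25 genes 13 fell and 0 rose, with a median of -0.65 over the list and -0.65, -0.44 and -1.07 in PANC1, COLO357 and SUIT2. The squalene synthase FDFT1 lay at 102, 225 and 158 CPM with control siRNA and 33, 115 and 30.9 CPM with KMT2D siRNA2 (-1.54, adjusted p = 0.00249) and ACLY at 334, 514 and 305 CPM with control siRNA and 127, 251 and 70.2 CPM with KMT2D siRNA2 (-1.46, adjusted p = 8.19e-05). In both genes the siRNA2 library was below its control in each line, and the groups overlapped for FDFT1 only, where COLO357 with siRNA2 was above the PANC1 control. The sterol desaturase SC5D (-0.65), the elongase ELOVL6 (-1.17), the cyclase LSS (-0.82), the isomerase IDI1 (-0.73) and the desaturases FADS1 (-0.65) and FADS2 (-0.77) fell too. So did the sterol sensor partner INSIG1 (-0.66), the carrier STARD4 (-0.76) and SREBF2, the transcription factor of the pathway (-0.61). FASN (-0.65, adjusted p = 0.13) and SCD (-0.86, adjusted p = 0.159) did not pass the test. The same number, 13, were lower with siRNA2 than with siRNA1, and the list's median with siRNA1 was 0.10. Of the 13 that fell, 6 held a heptamer site and 7 did not, and the 18 members without a site had a median of -0.63. The sterol oxidase MSMO1, no member of the list, went from 145, 188 and 146 to 40.5, 75.4 and 37.3 CPM (-1.67, adjusted p = 0.00131). The number of the 25 genes that fell was 6, 7 and 6 on leaving out the control of PANC1, COLO357 or SUIT2, 6 and 3 without the PANC1 or SUIT2 siRNA2 library, and 19 without a filter on low counts. The calls of LSS, IDI1, FADS1, FADS2 and STARD4 were lost without any 1 of these 5 libraries (adjusted p from 0.0621 to 0.221), and calls were lost for ELOVL6 without the SUIT2 control (adjusted p = 0.0727) or the SUIT2 siRNA2 library (0.126), SC5D without the SUIT2 siRNA2 library (adjusted p = 0.066), INSIG1 without the PANC1 control (adjusted p = 0.0717) or the SUIT2 siRNA2 library (0.101) and SREBF2 without the COLO357 control (adjusted p = 0.23), the SUIT2 control (0.148), the PANC1 siRNA2 library (0.0615) or the SUIT2 siRNA2 library (0.23).

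Many genes of the responses to unfolded proteins and to amino acid shortage rose. This response senses misfolded proteins through ERN1 and EIF2AK3 and amino acid shortage through other kinases that act on the same initiation factor. Of 24 genes 11 rose and 1 fell, with a median of 0.69, and the line medians were 0.35, 0.47 and 1.18. DDIT3, the stress-induced factor CHOP, had the largest rise (1.74, adjusted p = 0.0143) at 20.4, 5.35 and 11.6 CPM with control siRNA and 35, 9.67 and 99.6 CPM with KMT2D siRNA2. HERPUD1, which takes part in degradation from the endoplasmic reticulum, rose from 21.9, 104 and 31.8 to 62, 161 and 219.7 CPM (1.71, adjusted p = 0.000349), by far the most in SUIT2. The glutathione-degrading CHAC1 (1.45), the disulfide isomerase PDIA4 (1.17), the co-chaperone DNAJC3 (1.13) and the sensors ERN1 (1.09) and EIF2AK3 (0.80) also rose. PDIA6 is the member that fell, and it holds a site. HSPA5, the main chaperone of the compartment, was at 0.69 (adjusted p = 0.064) and the transcription factor XBP1 at 0.37 (adjusted p = 0.135), neither of them called. With siRNA1 the list's median was 0.18, and 7 members were higher with siRNA2 than with siRNA1, among them HERPUD1 (adjusted p = 0.000633) but not PDIA4 (adjusted p = 0.93). The count of rises was 5 without the SUIT2 control, 4 without the SUIT2 siRNA2 library (median 0.44) and 7 with the 6 libraries alone, and calls were lost for DDIT3 without the SUIT2 control (adjusted p = 0.0885), CHAC1 without the SUIT2 control (adjusted p = 0.0522) or the SUIT2 siRNA2 library (0.0536), ERN1 without the SUIT2 siRNA2 library (adjusted p = 0.084) and EIF2AK3 without the SUIT2 siRNA2 library (adjusted p = 0.098).

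**Figure D5:**
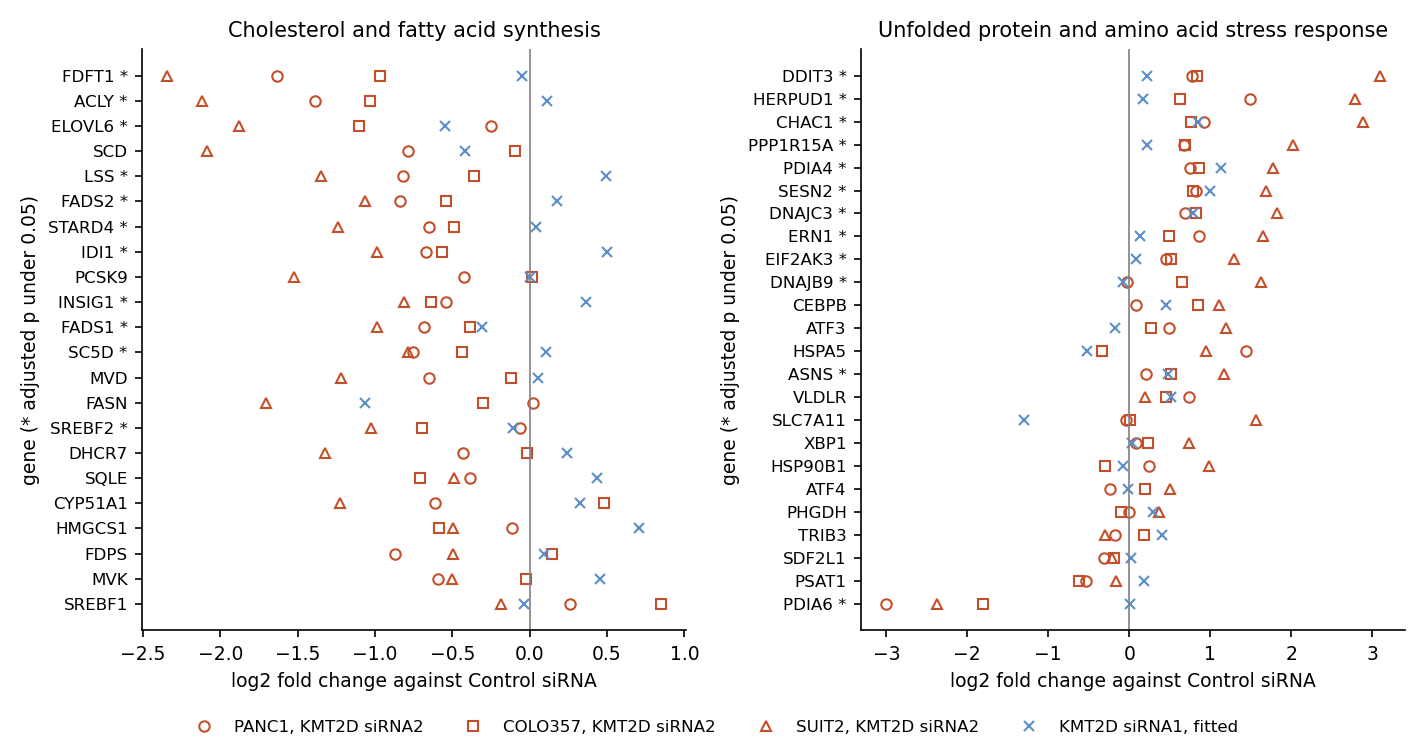
Log2 fold change against control siRNA (horizontal axis) for members (vertical axis) of the lipid synthesis list (left) and the stress response list (right), with open symbols for the 3 lines under KMT2D siRNA2 and crosses for the fitted value of KMT2D siRNA1. In the left panel most siRNA2 symbols lie below 0, and in the right panel SUIT2 has the highest value for each of the 11 genes that rose.

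Histone and replication genes were lower. All 14 tested replication-dependent histone genes were below 0, 12 fell, and the median was -0.72. H1-5, a linker histone, went from 647, 424 and 735 to 222, 259 and 299 CPM (-1.20, adjusted p = 0.000191) and the core histone H2AC11 from 346, 259 and 432 to 179.7, 137 and 198 CPM (2-fold, adjusted p = 2.97e-05). With siRNA1 the list's median was -0.54, and 3 members were lower with siRNA2 than with siRNA1. Among 30 replication and G1/S genes 14 fell and 0 rose, with a median of -0.52 (-0.36 with siRNA1). CDC6, which loads the replicative helicase, fell from 161, 242 and 112 to 46.8, 131 and 62.5 CPM (-1.14, adjusted p = 0.000104), the G1 kinase CDK6 from 597, 1622 and 526 to 293, 724 and 178 CPM (-1.23, adjusted p = 0.000173) and the clamp PCNA from 292, 289 and 144 to 109, 166 and 85.5 CPM (-0.99, adjusted p = 0.000543). These 3 fell in every line and also lay below their siRNA1 levels (adjusted p = 0.00519, 0.00501 and 0.00301). MCM10 (-1.10), POLA2 (-0.78) and CDC45 (-0.75) fell too, whereas the value of E2F1, -0.44, did not pass (adjusted p = 0.206). Of the 14, 3 held a heptamer site. SKP2, which targets the inhibitor p27 for degradation, fell from 87, 116 and 90.7 to 26.7, 70.4 and 25.4 CPM (-1.38, adjusted p = 7.38e-05), and CDKN1B, which encodes p27, rose from 51.5, 37.4 and 61.8 to 102, 67.2 and 178 CPM (1.11, adjusted p = 0.00018).

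Of 26 mitotic genes 8 fell and 0 rose (median -0.33), and of 26 DNA damage and repair genes 11 fell and 0 rose (median -0.35). With siRNA1 the medians were -0.16 and -0.22. Compared with siRNA1, 3 mitotic genes were lower and 2 higher with siRNA2, and 3 damage and repair genes were lower and 0 higher. BIRC5, survivin, went from 132, 51.8 and 46.6 to 34.9, 31.3 and 15.3 CPM (-1.37, adjusted p = 9.49e-05) and the centromeric histone CENPA from 60.6, 26.2 and 39.4 to 28.4, 13.7 and 16.2 CPM (-1.11, adjusted p = 0.000196). The proliferation marker MKI67 was at 0.07 (adjusted p = 0.876). MDC1, a mediator of the damage checkpoint, fell from 43.8, 49.4 and 61.1 to 16.6, 16.6 and 16.2 CPM (-1.64, adjusted p = 1.88e-05). MDC1 had no site and was also called lower with siRNA1 (-0.95, adjusted p = 0.00569). The kinase CHEK2 (-1.35) and FANCD2 (-0.78) fell as well. In PANC1 the median of the replication list was -0.83, against -0.51 in COLO357 and -0.24 in SUIT2, and the mitotic medians were -0.57, -0.38 and -0.05. This order was opposite to that of the stress response, and a difference between lines was not tested. Without the PANC1 control the counts of falls were 7 histone, 9 replication, 3 mitotic and 6 damage genes. Without the PANC1 siRNA2 library they were 9 replication, 3 mitotic and 6 damage genes, and without the COLO357 control 5 mitotic genes. With the 6 libraries alone 4 mitotic and 7 damage genes fell.

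Genes of the nuclear envelope and of mitochondrial import moved in both directions. Of 25 nuclear pore, import and lamina genes 7 fell and 1 rose, with a median of 0.03. Next to RAN, the lamin B receptor LBR went from 223, 255 and 1010 to 99.5, 119 and 407 CPM (-1.18, adjusted p = 7.61e-05) and lamin B1, LMNB1, from 335, 249 and 307 to 119, 120.3 and 171 CPM (-1.12, adjusted p = 0.000107). The pore protein NUP93 fell as well (-1.01), and the lamin A gene LMNA was at 0.32 (adjusted p = 0.282). BANF1, which tethers DNA to the envelope, rose (0.99, adjusted p = 0.00233) and was at 1.18 with siRNA1 (adjusted p = 0.000965). Among 20 genes of mitochondrial import and dynamics, the receptor TOMM70, with an octamer, fell from 345, 230.2 and 210.4 to 91.2, 99.6 and 95.3 CPM (-1.42, adjusted p = 3.45e-06) and the fission adaptor MFF fell by 1.35 on the log2 scale. The receptor TOMM20 rose from 92.5, 192 and 90 to 217, 378 and 258 CPM (1.22, adjusted p = 5.17e-05), and lay at 223, 425 and 391 CPM with siRNA1. The phosphatase PTPMT1 rose as well (1.86).

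Membrane traffic and lysosome genes leaned upward without many calls. Of 30 traffic genes 26 were above 0 and 4 rose, with 0 falls and a median of 0.23, and of 27 autophagy and lysosome genes 25 were above 0 and 4 rose, with a median of 0.30. RAB7A, the GTPase of late endosomes, rose from 67.4, 50.9 and 56.3 to 239, 85.4 and 179 CPM (1.41, adjusted p = 2.5e-05) and was higher than with siRNA1 (adjusted p = 0.00504). The coat protein SEC31A (0.77) and the protease CTSD (0.71) rose by less. Calls were lost for SEC31A without the SUIT2 control (adjusted p = 0.0531) or the SUIT2 siRNA2 library (0.0536) and CTSD without the PANC1 control (adjusted p = 0.169), the COLO357 control (0.0511), the SUIT2 control (0.0652), the PANC1 siRNA2 library (0.113) or the COLO357 siRNA2 library (0.061). The autophagy count was 1 without either the PANC1 or the SUIT2 control, 2 without the COLO357 or SUIT2 siRNA2 library and 0 without the PANC1 siRNA2 library. The traffic count was 2 without the SUIT2 control or the PANC1 siRNA2 library and 1 without the SUIT2 siRNA2 library. With the 6 libraries alone 2 traffic genes and 1 autophagy gene rose.

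Signalling genes changed in small groups. Of 25 YAP, TEAD and TGF-beta targets 8 rose and 0 fell, with a median of 0.42. PTPN14, a phosphatase that binds YAP, rose from 236, 106 and 84.4 to 942, 256 and 284 CPM (1.66, adjusted p = 5.83e-06), and was at 1.25 with siRNA1 (adjusted p = 0.000271). The transducer SMAD3 (0.68), the inhibitors SMAD7 (0.73) and SKI (0.72) and the target ID2 (1.35) rose as well. The count was 4 without any 1 of the 3 controls or without the PANC1 siRNA2 library, and the median was 0.12 without the SUIT2 siRNA2 library and 0.12 with limma-voom. Calls were lost for SMAD3 without the PANC1 control (adjusted p = 0.0512), SMAD7 without the COLO357 control (adjusted p = 0.0893), the SUIT2 control (0.0764) or the SUIT2 siRNA2 library (0.19), SKI without the PANC1 control (adjusted p = 0.093), the COLO357 control (0.0837) or the PANC1 siRNA2 library (0.18) and ID2 without the COLO357 control (adjusted p = 0.0624), the SUIT2 control (0.0666) or the PANC1 siRNA2 library (0.0816).

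Of 20 Notch pathway genes 5 rose and 2 fell. The ligand JAG1 went from 23.7, 48.1 and 15.7 to 48.4, 146 and 69.4 CPM (1.65, adjusted p = 0.00162), the endocytic inhibitor NUMB was at 0.95 (adjusted p = 0.000747) and the coactivator MAML2 at 0.90 (adjusted p = 0.00564). RBPJ, the DNA-binding factor of the pathway, rose from 26, 23.9 and 23.7 to 71.1, 45.4 and 107 CPM (1.46, adjusted p = 7.27e-05), and siRNA1 gave nearly the same levels (70.5, 53 and 107 CPM). The receptor-cleaving protease ADAM10, with an octamer, fell from 252, 422 and 379.9 to 124, 215 and 242 CPM (-0.89, adjusted p = 0.0015). In the WNT list 3 of 23 rose, among them the receptor LGR4, from 138, 442 and 332 to 272, 607 and 780.4 CPM (0.90, adjusted p = 0.00413). Of 19 receptor tyrosine kinases 2 rose, MET and ROR1, the latter from 97.3, 3.81 and 32 to 209, 6.52 and 82.7 CPM (1.12, adjusted p = 0.00131) and above its siRNA1 level (adjusted p = 0.00014). Of the Notch list 1 gene fell without the PANC1 or SUIT2 control or the PANC1 or COLO357 siRNA2 library. Of the WNT list 1 gene rose without the SUIT2 control and with the 6 libraries alone, and of the receptor kinases 4 rose with no filter on low counts.

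Among 24 genes of phosphoinositide 3-kinase, AKT and mTOR signalling, 2 rose and 3 fell. The 3 that fell and the 2 that rose all held a site, and 13 of the 24 held none. PIK3CB went from 95.6, 58.9 and 129 to 49.6, 17 and 35.2 CPM (-1.55, adjusted p = 2.1e-05), at 32.9, 19.2 and 30.1 CPM with siRNA1. MTOR, the kinase at the centre of nutrient sensing, went from 203, 136 and 147 to 103, 86.7 and 50.3 CPM (-1.03, adjusted p = 0.000778). The kinase PDPK1, which holds the octamer, rose (0.71, adjusted p = 0.00489). Of 25 genes of G protein signalling 1 rose and 5 fell, 4 of the 5 with a site, and 16 of the 25 held none. GNAQ, an alpha subunit coupled to phospholipase C, went from 76, 91.9 and 101 to 26.9, 41.7 and 42.3 CPM (-1.29, adjusted p = 7.4e-06) and its siRNA2 libraries lay below all controls. GNA12 was at -1.08 (adjusted p = 0.000243) and the thrombin receptor F2R at -1.93 (adjusted p = 0.0202). Of 24 MAPK feedback and immediate early genes 3 rose and 1 fell: SPRED2, an inhibitor of RAS signalling (0.90, adjusted p = 0.0021), and the factors ETV1 (1.15) and JUNB (1.10) rose, and ETV4 fell (-1.21, adjusted p = 0.00233), with -1.19 under siRNA1. Calls were lost for F2R without the PANC1 control (adjusted p = 0.0932), the SUIT2 control (0.0705), the PANC1 siRNA2 library (0.131) or the SUIT2 siRNA2 library (0.112), ETV1 without the SUIT2 control (adjusted p = 0.106) or the PANC1 siRNA2 library (0.129) and JUNB without the PANC1 control (adjusted p = 0.0936), the COLO357 control (0.0915) or the SUIT2 siRNA2 library (0.0945). Of the MAPK list 8 genes rose with no filter on low counts, 7 with the 6 libraries alone, 6 with limma-voom and 5 with DESeq2, and 2 fell without the COLO357 control. Of the G protein list 2 genes fell without the SUIT2 siRNA2 library and 3 without the SUIT2 control, and 0 rose without the SUIT2 siRNA2 library or the PANC1 control. The rises of the phosphoinositide 3-kinase list were 1 without the PANC1 or SUIT2 control or any 1 siRNA2 library, and 4 with DESeq2 or limma-voom.

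Components of RNA interference itself were among the changed genes. Of 14, 3 fell and 1 rose. DICER1, which cuts microRNA precursors, went from 399, 413 and 409.8 to 174, 242 and 171 CPM (-1.05, adjusted p = 0.000364) and was lower than with siRNA1 (adjusted p = 0.00145). Its partner PRKRA was at -0.77 (adjusted p = 0.00731), LIN28B, expressed in PANC1, at -2.72 (adjusted p = 0.0086), and the argonaute AGO3 at 0.55 (adjusted p = 0.0426). All 4 held a site, AGO3 with a rise, and only 5 of the 14 held none. Calls were lost for PRKRA without the SUIT2 siRNA2 library (adjusted p = 0.0561), LIN28B without the PANC1 control (adjusted p = 0.343) or the PANC1 siRNA2 library (0.5) and AGO3 without the PANC1 control (adjusted p = 0.0876), the SUIT2 control (0.218) or the PANC1 siRNA2 library (0.312).

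Inflammatory genes leaned upward. Of 23 NF-kB and cytokine genes 22 were above 0, with a median of 0.59, and 2 rose in the fit, the subunits RELB (1.08, adjusted p = 0.0452) and NFKB1 (0.67, adjusted p = 0.0484). The count was 0 without any 1 control or without the PANC1 or SUIT2 siRNA2 library, 6 without the COLO357 siRNA2 library, 4 with limma-voom and 9 with no filter on low counts. The median was 0.30 without the COLO357 control and 0.32 without the SUIT2 siRNA2 library. NFKB1 lay at 59.8, 55.1 and 115 CPM with control siRNA and 103, 79.9 and 183 CPM with KMT2D siRNA2. With siRNA1 the list's median was -0.29, and 6 members were higher with siRNA2 than with siRNA1. IL1A and IL1B, cytokines of the interleukin 1 family, had fitted values of 1.54 and 1.40 (adjusted p = 0.0624 and 0.311), which did not pass. Of 27 interferon response genes edgeR called 0, with 6 at an unadjusted p under 0.05, 1 called by DESeq2 and 0 by limma-voom. Without the COLO357 siRNA2 library 4 interferon genes rose, without the PANC1 siRNA2 library 1 fell, and 3 rose with no filter. In the MHC class I list 2 of 19 rose, HLA-E (0.75, adjusted p = 0.00243) and the peptide trimmer ERAP1 (0.56, adjusted p = 0.0202). Calls were lost for RELB without the PANC1 control (adjusted p = 0.0998), the COLO357 control (0.163), the SUIT2 control (0.0623), the PANC1 siRNA2 library (0.0899) or the SUIT2 siRNA2 library (0.296), for NFKB1 without the PANC1 control (adjusted p = 0.147), the COLO357 control (0.17), the SUIT2 control (0.0508), the PANC1 siRNA2 library (0.135) or the SUIT2 siRNA2 library (0.224) and for ERAP1 without the PANC1 control (adjusted p = 0.103), the SUIT2 control (0.104), the PANC1 siRNA2 library (0.0629) or the SUIT2 siRNA2 library (0.0731).

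Few genes of epithelial and mesenchymal identity were called in the fit, and the counts moved with the setting. Of 18 genes of the classical subtype of pancreatic tumours edgeR called 0, with 6 at an unadjusted p under 0.05, 0 called by DESeq2 and 4 by limma-voom, and 2 rose without the COLO357 control. Of 26 mesenchymal and matrix genes 23 were above 0 and 1 rose, the matrix protein tenascin, TNC, from 0.612, 16 and 16.7 to 1.73, 36.8 and 30 CPM (1.12, adjusted p = 0.00193). The number that rose was 9 with no filter on low counts, 6 with the 9 control and KMT2D libraries, 5 with limma-voom and 5 with the 6 libraries alone. It was 2 without the COLO357 control or without the PANC1 or COLO357 siRNA2 library.

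Of 24 tight junction and adhesion genes 3 rose. After CLDN1 these were the polarity protein PARD6B, from 239.9, 30.2 and 195 to 541, 59.4 and 440.2 CPM (1.12, adjusted p = 0.00123), and MARVELD2 (0.82, adjusted p = 0.00968), and 5 rose without the COLO357 siRNA2 library. Of 25 integrin and focal adhesion genes 2 rose and 2 fell, with ITGB8 at 1.38 (adjusted p = 0.000935). The falls were 0 without the PANC1 control or the SUIT2 siRNA2 library and 1 without any 1 of the other libraries compared, and the rises were 1 without the PANC1 or SUIT2 control. Of 30 actin regulators 2 rose and 2 fell, among them the capping protein CAPZA1 (0.90, adjusted p = 0.00107) and the GTPase RAC1, which fell from 169, 93.2 and 134 to 91.7, 57.6 and 63.8 CPM (-0.88, adjusted p = 0.00266). The rises of the actin list were 4 without the COLO357 siRNA2 library and 1 without the PANC1 or COLO357 control or the PANC1 or SUIT2 siRNA2 library, and its falls were 1 without the PANC1 siRNA2 library. Of 19 basal-like and keratinization genes 3 rose and 1 fell, the fall being the keratin KRT80 (-1.52, with -1.68 under siRNA1). Of the 3 rises 1 had the same direction in all 3 lines, and 1 gene rose without the SUIT2 control or the SUIT2 siRNA2 library, against 6 with no filter on low counts. Calls were lost for MARVELD2 without the PANC1 siRNA2 library (adjusted p = 0.0905) and for KRT80 without the SUIT2 siRNA2 library (adjusted p = 0.0513).

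Genes of basic metabolism and protein synthesis were called in small numbers. Among 24 genes of glycolysis and hypoxia and 21 of ribosome biogenesis and MYC targets edgeR, DESeq2 and limma-voom each called 0, with 2 and 3 at an unadjusted p under 0.05 and medians of 0.01 and 0.05. With no filter on low counts 2 rose in the first and 1 fell in the second. Of 25 ribosomal protein genes 1 fell, RPL22, from 119, 89.2 and 154 to 46.6, 67.2 and 44.1 CPM (-1.11, adjusted p = 0.00249), which held a site. Of 25 nuclear genes of oxidative phosphorylation 2 fell, cytochrome c, CYCS (-1.01, adjusted p = 0.00489), and the synthase subunit ATP5F1B (-0.75, adjusted p = 0.0149). Of 23 translation factors 3 rose and 1 fell, and EIF3B rose from 492, 447 and 199 to 745, 780.2 and 491 CPM (0.91, adjusted p = 0.000372). Of 20 heat shock genes 1 fell, HSPH1 (-0.71, adjusted p = 0.0025), and of 25 oxidative stress genes 2 rose and 1 fell, with the ferritin FTH1 at 96.2, 144 and 129.6 CPM with control siRNA and 262, 300.5 and 259 CPM with KMT2D siRNA2 (1.17, adjusted p = 0.0049). Of 27 genes of ubiquitin ligases and the proteasome 3 rose and 3 fell. The ligase subunit WSB1, which held a site, rose from 31.5, 41.3 and 38.8 to 143, 122 and 198 CPM (2.02, adjusted p = 4.67e-07), and was at 1.49 with siRNA1 (adjusted p = 2.1e-05). Of 24 apoptosis regulators 2 rose and 1 fell, and MCL1, an inhibitor of cell death, rose from 146, 207 and 217 to 228, 483 and 426 CPM (0.93, adjusted p = 0.000382) with a similar value under siRNA1 (1.07). Amino acid transport and synthesis (3 higher and 1 lower of 24), splicing (0 and 2 of 24) and CDK inhibitors and p53 targets (3 and 1 of 20) held few calls. The call was lost for ATP5F1B without the COLO357 control (adjusted p = 0.0553), the SUIT2 control (0.0576), the PANC1 siRNA2 library (0.0919) or the SUIT2 siRNA2 library (0.111).

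Most of these small counts moved when 1 library was left out. The rises of amino acid transport and synthesis were 0 without the SUIT2 control and 1 without any 1 of the other libraries compared except the COLO357 siRNA2 library. The rises among translation factors were 1 without the COLO357 or SUIT2 control or the SUIT2 siRNA2 library, and those among apoptosis regulators were 1 without any 1 of the libraries compared except the COLO357 siRNA2 library. The falls of splicing genes were 0 without the PANC1 or COLO357 control or the PANC1 or SUIT2 siRNA2 library and 1 without the other two. The rises of CDK inhibitors and p53 targets were 1 without the SUIT2 siRNA2 library, and their falls were 3 without the COLO357 siRNA2 library. The oxidative stress fall was lost without the COLO357 or SUIT2 control or the SUIT2 siRNA2 library.

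Reads of some genes named here could be shared with others. Exons of ACLY, ADAM10, AGO3, BACH2, BANF1, CALM2, CALM3, CAPZA1, CLDN2, CPOX, CTSD, DDIT3, DICER1, EED, EIF2AK3, EP300, EPDR1, ERAP1, F2R, FADS1, FADS2, FANCD2, FDFT1, FGF14, FTH1, ID2, IDI1, ITGB8, KMT2C, KMT2D, LIN28B, LSS, MAML2, MCL1, MDC1, MFF, MSRB3, MTOR, NUMB, PDIA6, PDPK1, POLA2, PTPMT1, PTPN14, RPL22, SEC31A, SREBF2, STARD4, TOMM70 and UCA1 overlap those of another gene, and pseudogenes named after ABT1, ASH2L, ATP5F1B, BANF1, CALM2, CHEK2, CYCS, EI24, FADS2, FANCD2, FTH1, GNAQ, KRT16, MKI67, PCNA, RAC1, RAN, RBPJ, RPL22, SCD, SLC16A6, TOMM20 and XBP1 are annotated, so their counts are uncertain to that extent.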

How the data were processed

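RNA was extracted 48 h after transfection, depleted of ribosomal RNA, made into stranded libraries and sequenced as 100 nt read pairs in 7 pools, per the labels' protocols; the sources used here give neither the pool of each library nor the siRNA sequences nor the strand setting of the counting. Deposited per library were unnormalized counts of read pairs for each Ensembl gene, made by the authors with FastQC, TopHat2, HTSeq and edgeR on hg19, per the submitters' processing notes. Of 63677 identifiers 52181 (81.9%) were given a symbol by their Ensembl identifier, and biotypes came from GENCODE v29. The 5 entries that name no gene, 33% to 42% of read pairs in the 6 libraries, were left out.

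Counts of all 18 libraries were fitted with edgeR 4.0.16 (R 4.3.3) by its quasi-likelihood test with TMM scaling, cell line as pairing term and siRNA as factor (6 levels, 10 residual degrees of freedom), after a filter (minimum count 10, total 15) that left 18944 genes. P-values were adjusted by Benjamini-Hochberg over all of them and called under 0.05. Values per line are log2 CPM differences with a prior count of 2. The deviations of the siRNA2 and control libraries of a line from their group means correlated at 0.93 (PANC1), 0.933 (COLO357) and 0.894 (SUIT2). On simulated data 67% of 2-fold and 97% of 4-fold changes among 200 of 18815 genes were recovered in this comparison, with 5.2% false calls.

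Named were KMT2D and KMT2C, the 14 largest rises and falls called against control with a mean of at least 2 CPM and the same direction in all 3 lines, the 5 largest differences each way from siRNA1, and up to 6 called members of each list by p (the 2 of smallest p where fewer than 2 were called). All other genes named, among them CALM3, ABCA1, MSMO1, DDIT3, CHAC1 and the lipid synthesis genes past the sixth, were chosen after their values were seen. The comparison and the 46 lists (1018 of 1024 members with an identifier, all but PAGR1, ACACA, H2AC8, H2BC8, H3C2 and H3C10) were chosen with earlier results of these data known. Sites were searched on the sense strand of the 3′ UTR of 1 GENCODE v29 principal transcript per gene with a mean of at least 2 CPM, for heptamers in at least 200 genes. Alternatives were DESeq2 1.42.0, limma-voom (limma 3.58.1), RLE scaling, no filter, no cell line term, fewer libraries and each library left out. After the data were seen, fits without each cell line and without 3 KMT2C libraries with over 20% of read pairs outside annotated features were added. Values of some genes, and 1 site, are not reported here.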

Additional observations from a re-analysis of the deposited data

Results flagged for a closer look

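KMT2D siRNA2 and KMT2D siRNA1 gave calls in opposite directions against the same 3 control libraries for 12 genes, of which 4 were higher with siRNA2. These genes were chosen by their opposite calls, so a difference between siRNA2 and siRNA1 followed from that choice. Its test passed for all 12, of which 3 are named here. The actin regulator WASF3 lay at 29.4, 0.867 and 10.4 CPM with control siRNA and 11, 0.532 and 5.12 CPM with KMT2D siRNA2 and at 38.5, 1.62 and 24.8 CPM with siRNA1 (-1.18 and 0.79, difference adjusted p = 1.64e-05). The sterol dehydrogenase HSD17B7 lay at 22.8, 15.2 and 17.6 CPM with control siRNA and 10.4, 10.2 and 10.6 CPM with KMT2D siRNA2 and at 40.3, 20.7 and 42.6 CPM with siRNA1 (-0.80 and 0.88, difference adjusted p = 3.02e-05). The zinc transporter SLC39A11 lay at 36.7, 31.8 and 21.3 CPM with control siRNA and 72.6, 44.7 and 34.8 CPM with KMT2D siRNA2 and at 17.8, 21.8 and 12 CPM with siRNA1 (0.73 and -0.78, difference adjusted p = 2.48e-05). For all 3 the siRNA2 and siRNA1 libraries of each line lay on opposite sides of its control. The siRNA2 calls were lost for WASF3 without the PANC1 control (adjusted p = 0.0865), HSD17B7 without the PANC1 control (adjusted p = 0.075), the COLO357 control (0.0591), the SUIT2 control (0.0537), the PANC1 siRNA2 library (0.128) or the SUIT2 siRNA2 library (0.0638) and SLC39A11 without the PANC1 control (adjusted p = 0.0955), the PANC1 siRNA2 library (0.0603) or the SUIT2 siRNA2 library (0.069).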

How the results depend on the processing

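The count of 1982 genes called against control siRNA was 1180 (471 higher, 709 lower, 39.9% higher against 46.7%) with the 6 libraries alone, 642 without PANC1 and 700 without SUIT2, and it ran from 1185 to 2166 when 1 library was left out. It stayed within 1.5 times with DESeq2 (2338), limma-voom (2300), no filter (2216), RLE scaling (1988), the 9 control and KMT2D libraries (1491), without COLO357 (1862) and without 3 KMT2C libraries (1622). The count of 2466 against siRNA1 was 865 without PANC1 and 811 without SUIT2, and ran from 1205 to 2710 with 1 library left out. KMT2D stayed at -0.64 with no filter, then past the threshold (adjusted p = 0.0197), and ran from -0.82 to -0.45 with 1 library left out. Among 211 named genes other than KMT2D, 186 were called, and 14 of them under every alternative. A direction turned for ENPP5, from -1.82 to 1.19 with 1 library left out, at 1.19 without the SUIT2 control (adjusted p = 0.605). It turned for MKI67, never called, without PANC1 (-0.14) and without SUIT2 (-0.054), and with 1 library left out it ran from -0.12 (without the PANC1 control) to 0.32, the other turn being without the SUIT2 siRNA2 library (-0.017). Many of these fits held fewer libraries, and the cause of the changes was not tested.

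Libraries share a number because they come from 1 cell line, which is the pairing term of the fit. With no replicate block, the count was 35 genes against control (3 higher, 32 lower, 8.57% higher) and 49 against siRNA1, and the call was lost for 172 of the 186 named genes called.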
